A study of Caenorhabditis elegans with 6 samples.

Results

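Chromosome III of *Caenorhabditis elegans* held 2175 of the 12404 sites called for the transcription factor PHA-4 in the series-level peak list. These sites are all lines of that list placed on chromosome III. The list made from each ChIP replicate held, on the same chromosome, 1015 of 5320 peaks (replicate 1), 549 of 2802 (replicate 2) and 388 of 1900 (replicate 3), and these served as replicate support. A site counted as supported by a replicate when it overlapped a peak of that replicate by at least 1 bp.

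PHA-4 is the FoxA forkhead factor of the worm. It specifies the pharynx, the feeding organ, and is also present in the gut and in parts of the somatic gonad. FoxA proteins bind DNA in closed chromatin and are known for opening enhancers early in organ formation, for which they are called pioneer factors. Chromosomes of the worm have no single centromere, and their autosomes have a gene-dense centre flanked by arms richer in repeats. Chromosome III carries the cluster of Hox genes that includes lin-39, mab-5 and egl-5, which pattern the body from head to tail. It also carries unc-119, the gene used as the selection marker of the strain.

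ChIP-seq (chromatin immunoprecipitation and sequencing) was performed on whole L4 larvae kept at 20 °C. All samples came from strain OP37, which carries the unc-119 mutation ed3 on chromosome III. Its transgene, wgIs37, was introduced by bombardment and supplies a normal unc-119 copy together with pha-4 fused to the TY1, EGFP and 3xFLAG tags. Anti-GFP antibodies were used to pull down the tagged factor, and 3 input samples of total chromatin were taken alongside the 3 ChIP samples. All values come from this tagged transgenic line and from whole animals, so binding by PHA-4 without the tag and binding in single tissues were not measured. The titles carry the word male and the recorded sex is hermaphrodite, a conflict that was not resolved. Whether the replicates came from separate cultures is not stated, so their spread may be technical. The inputs were not analysed here as values of their own.

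Each peak has a position and a significance value, which served here for ranking within each list, rank 1 being the lowest value. The rank of a peak in another list is the best rank among the peaks of that list that it overlaps. A wide peak can thus draw on several peaks, and neighbouring peaks can share a rank. The lists give no read counts, so the depth behind each list is unknown, and the 2.6-fold range in peak number on chromosome III could not be set against it. Genes were not assigned to peaks, because the gene table at hand belongs to another assembly than the peaks (WormBase WS220). Positions below are those of WS220. Peaks covered 6.19% of chromosome III in the series-level list, where its span ends at the last peak of any list, 13779152. The replicate lists covered less, at 3.15%, 1.92% and 1.40% for replicates 1, 2 and 3. No peak of any replicate had the same start and end as a peak of another.

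The best site of chromosome III lay near its right end, from 13462582 to 13465378. This peak was 2797 bp wide and had a significance value of 6.54e-97, which placed it at rank 26 among all chromosomes. Its ranks in replicates 1, 2 and 3 were 48, 28 and 32, so its place was alike in the 3 libraries. A peak from 8799646 to 8802853 followed at rank 29 (5.97e-92), with ranks 46, 52 and 150 in replicates 1, 2 and 3. The third, from 3866547 to 3867813, ranked 32 in the series-level list (1.07e-90) and 25, 15 and 15 in the replicates. It was the best peak of chromosome III in replicates 2 and 3, and also in replicate 1 once the long run described below was left out. Its width of 1267 bp was well under that of the first 2 sites, at 2797 and 3208 bp.

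The next sites were also called in all 3 libraries, with less even ranks. The peak from 598192 to 601268 (series-level rank 37) ranked 133, 144 and 87 in replicates 1, 2 and 3. The peak from 10214247 to 10217310 (rank 38) ranked 106, 158 and 101. For the peak from 5915912 to 5918035 (rank 49), replicates 1 and 3 gave ranks of 40 and 34 and replicate 2 gave 279. Replicate 2 was thus the lower one there, while for the peak from 12612142 to 12612996 (rank 55) it gave the best rank, 23, against 47 and 38. The peak from 356405 to 358270 (rank 61) ranked 60, 151 and 42, and that from 834618 to 836725 (rank 69) ranked 73, 54 and 65. The peak from 13068025 to 13070817 (rank 71) stood further down in each replicate, at ranks 548, 262 and 1032.

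Of the 20 best series-level peaks on chromosome III, 19 were called in all 3 replicates, where 8.51% of all series-level peaks were. They were selected by rank, so nothing is read from that contrast. The 20 peaks were 839 to 3628 bp wide (median 2294 bp) and lay between ranks 26 and 98. Their median rank was 67.5 in replicate 1, 112 in replicate 2 and 87 in replicate 3. Only 5 of the 20 stood within the best 100 peaks of every replicate, and 15 within the best 300. The exception to full support was the peak from 7541681 to 7544341 (rank 95), which ranked 6 in replicate 1 and was absent from the other lists. It belongs to the long run described below.

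**Figure D1:**
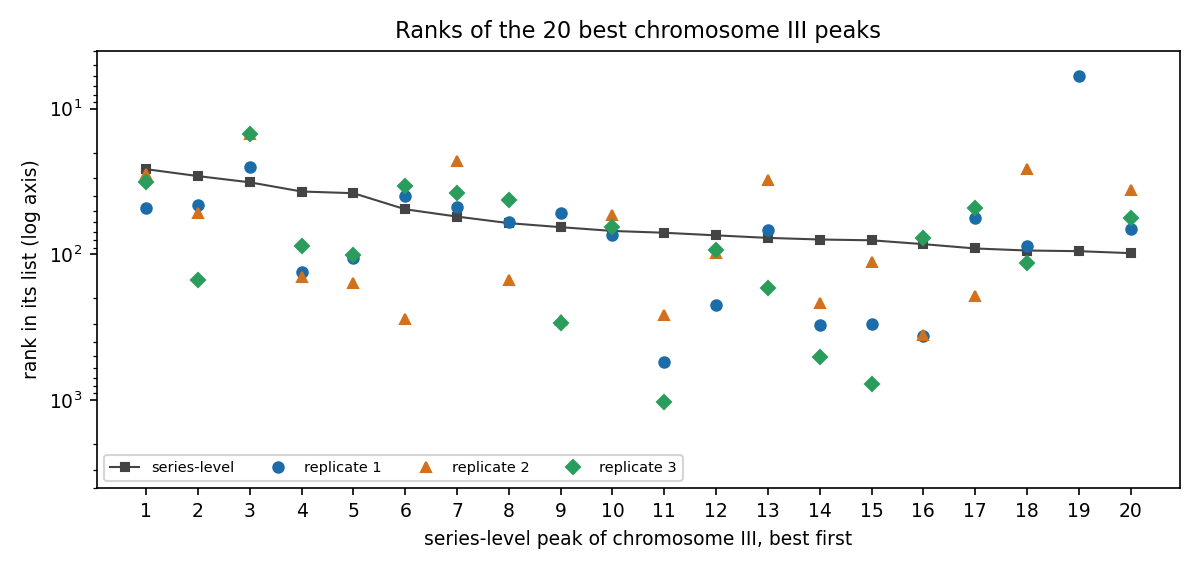
Rank of each of the 20 best series-level peaks of chromosome III (x axis, best first) in the series-level list (squares joined by a line) and in replicates 1 to 3 (points). The y axis is a log axis with rank 1 towards the top. Peak 19 has a point for replicate 1 at rank 6 and none for replicates 2 and 3, and the replicate points of peak 6 lie between ranks 34 and 279.

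Several of the best sites were neighbours. The peaks from 832781 to 834363 and from 834618 to 836725 were 254 bp apart. In megabase 8, peaks from 7721331 to 7724958, from 7728027 to 7731156 and from 7736560 to 7738996 were separated by 3068 and 5403 bp and ranked 80, 65 and 85. Replicate 1 ranked them 299, 52 and 362, replicate 2 ranked them 112, 284 and 360, and replicate 3 ranked them 779, 297 and 77. A different member of the group was therefore the best one in each library. The peaks from 12606068 to 12609146 and from 12612142 to 12612996 were 2995 bp apart. They differed in width, at 3079 and 855 bp, and the narrower one had the better rank in every list.

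Wide peaks were few on chromosome III, and most were supported by at least 2 replicates. The 10 widest series-level peaks measured 2793 to 3628 bp, were all called in the 3 replicates, and included 8 of the 20 best. The other two were the peak from 6991007 to 6994483 (3477 bp, rank 189) and the peak from 4501622 to 4504942 (3321 bp, rank 104). The median width over chromosome III was 294 bp, with quartiles of 161.5 and 484 bp. Of the 129 peaks of at least 1000 bp, 104 (80.6%) were supported by at least 2 replicates. Among the 895 peaks from 200 to below 500 bp the share was 15.8%, and among the 433 from 100 to below 200 bp it was 0.693%. Some of the peaks of at least 1000 bp without such support lay in the long run described below. The same shares were not computed for the other chromosomes. Peaks without any replicate had a median width of 183 bp, and those of 1, 2 and 3 replicates 340, 569 and 800.5 bp. A wider peak has more bases to be overlapped, and how much of this gradient that accounts for was not tested.

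Of the 2175 peaks, 1084 were supported by at least 1 replicate (49.8%, 95% exact interval 47.7 to 52.0%), beside 46.3% over all chromosomes. Support by at least 2 replicates was found for 452 (20.8%, interval 19.1 to 22.5%, beside 18.4%) and by all 3 for 230 (10.6%, interval 9.31 to 11.9%, beside 8.51%). These intervals cover counting error only. The shares over all chromosomes include chromosome III. On the other chromosomes alone they were lower, at 45.6% for at least 1 replicate, 17.9% for at least 2 and 8.07% for all 3. The chromosome III shares rested on replicate 1 in particular. Without its list, support by at least 1 replicate was 28.6% and by at least 2 replicates 11.4%, and without replicate 2 the latter was 13.2%. Fewer lists give less support by construction.

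Support followed rank closely. The series-level list covers the same libraries, so its ranks are not taken as independent of the replicate calls, and this is description only. In the best of 10 equal rank groups of chromosome III peaks, 205 of 218 were supported by at least 2 replicates (94.0%) and 168 by all 3. The share supported by at least 2 replicates was 71.1% in the second group, 34.4% in the third and 6.42% in the fourth. In the last 4 groups it was 0, and 8.29 to 21.7% of their peaks overlapped any replicate. The median width went down in the same order, from 968 bp in the best group to 118 bp in the last. Chromosome III and the other chromosomes gave close shares when peaks of the same rank were set side by side. At series-level ranks 1001 to 3000, at least 2 replicates supported 58.5% of the peaks on chromosome III and 57.8% of those elsewhere. At ranks 1 to 1000 the shares were 94.2% and 97.5%, and at ranks 3001 to 6000 they were 4.46% and 5.25%. Of the 225 chromosome III peaks at ranks 1 to 1000, 216 lay outside the long run described below. The rest lay in that run, where replicate 1 alone gave support. They lowered the chromosome III share at these ranks and in the best rank group, and the shares without them were not computed.

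**Figure D2:**
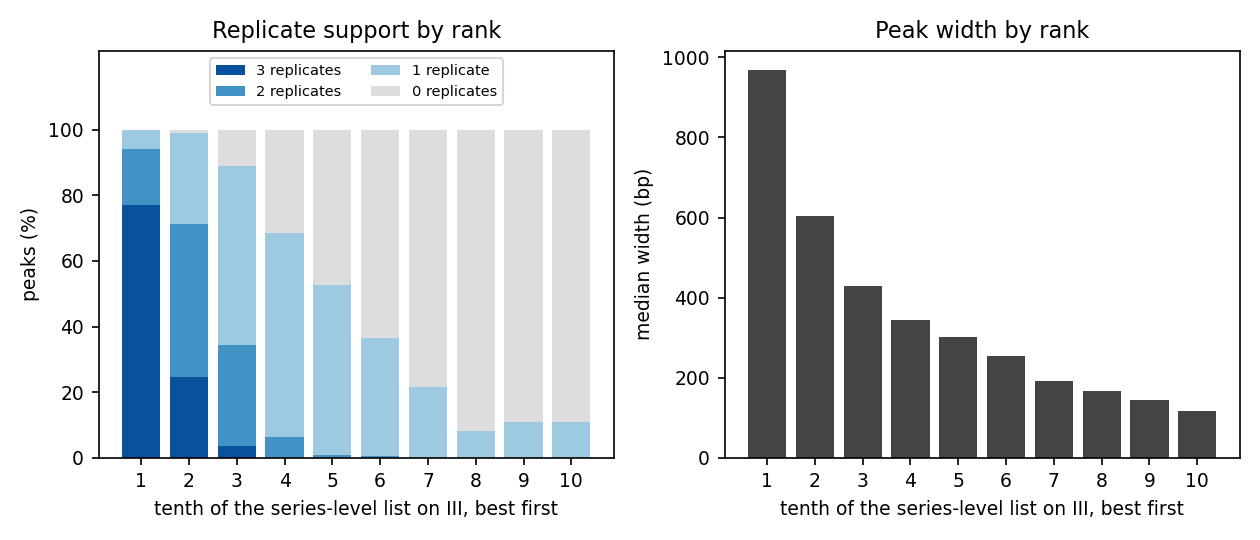
Left, share of the series-level peaks of chromosome III (y axis, %) overlapped by 3, 2, 1 or 0 replicates, in 10 equal groups by rank (x axis, best first). Right, median peak width in bp for the same groups. All 3 replicates supported 77.1% of the best group and 0% from the fourth group on, and the median width went from 968 to 118 bp.

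The best-ranked series-level peaks without any replicate support are named next. They do not mark where support ends, since 11.1% of the last rank group still overlapped at least 1 replicate. The first lay from 1594542 to 1595271, was 730 bp wide and ranked 1964 in the series-level list, 408 on chromosome III. It was followed by peaks from 13766387 to 13767157 (rank 2061), from 6903106 to 6903770 (rank 2115), from 6096431 to 6097181 (rank 2321) and from 3120075 to 3120372 (rank 2384). All of them had significance values between 4.87e-12 and 8.47e-11, far from the best of the list. In the other direction, 91 of 1015 peaks of replicate 1, 17 of 549 of replicate 2 and 6 of 388 of replicate 3 on chromosome III had no counterpart in the series-level list. The best of these were a peak of replicate 2 from 8561342 to 8561636 (rank 924 there), one of replicate 3 from 8006542 to 8006740 (rank 1209) and one of replicate 1 from 2911896 to 2912258 (rank 1564). None of the 5 best in each list was shared with another replicate. The series-level list held 91.0%, 96.9% and 98.5% of the chromosome III peaks of replicates 1, 2 and 3, and how it was made from them is not given.

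Between replicates, 76.3% of the chromosome III peaks of replicate 3 overlapped replicate 1 (interval 71.7 to 80.4%) and 66.5% overlapped replicate 2 (61.6 to 71.2%). Of the peaks of replicate 2, 69.9% overlapped replicate 1 (65.9 to 73.8%) and 47.9% overlapped replicate 3 (43.7 to 52.2%). Of the larger list of replicate 1, 37.9% overlapped replicate 2 (34.9 to 41.0%) and 29.1% overlapped replicate 3 (26.3 to 32.0%). The same shares on the other chromosomes were 76.1, 63.8, 68.3, 42.9, 35.6 and 26.8% in that order. Where peaks overlapped, their midpoints were a median of 65 to 76.75 bp apart, well within the width of a peak. Ranks within the shared peaks were moderately related, with a Spearman's rho, which is Pearson's r of the ranks, of 0.50 (replicates 1 and 2, 385 peaks), 0.52 (1 and 3, 295 peaks) and 0.50 (2 and 3, 263 peaks). These are correlations across peaks of libraries of unknown depth and peaks are not independent, so no p is given.

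Merging overlapping peaks of the 3 replicate lists gave 1233 regions on chromosome III. Of these, 453 (36.7%, interval 34.0 to 39.5%) held peaks of at least 2 replicates, beside 35.8% over all chromosomes, and are called reproduced below. All 3 replicates were present in 234, which had a median width of 719 bp. Replicates 1 and 2 alone shared 139, replicates 1 and 3 alone 58 and replicates 2 and 3 alone 22. Regions of a single replicate numbered 569 for replicate 1, 142 for replicate 2 and 69 for replicate 3. Without replicate 1 the number of reproduced regions was 257 and without replicate 2 it was 292.

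Chromosome III had more peaks per Mb than any other chromosome in each of the 4 lists. The density was 73.7 peaks per Mb in replicate 1, 39.8 in replicate 2 and 28.2 in replicate 3, against 49.8, 26.1 and 17.5 on the other chromosomes together. The ratio was 1.48, 1.53 and 1.61, or 1.54 ± 0.066 (SD, n = 3 replicates), and was thus above 1 in each replicate. An exact sign-flip permutation test over the replicates (two-sided) gave p = 0.25, the smallest value that 3 replicates allow, and an adjusted p of 0.25 over the 4 comparisons of this kind. This test therefore cannot reach 0.05 with 3 replicates. With chromosome V left out of the others, an alternative chosen after seeing the data, the mean ratio was 1.42. Chromosome IV, the next in replicates 2 and 3, had 55.7, 33.1 and 21.0 peaks per Mb in replicates 1, 2 and 3, while chromosome I was next in replicate 1 with 62.3. In the series-level list, chromosome III had 157.8 peaks per Mb, chromosome I 145.1 and chromosome IV 137.3.

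Chromosome III made up 13.7% of the span of all chromosomes and held 22.5% of the 1000 best series-level peaks (interval 19.9 to 25.2%). In replicates 1, 2 and 3 it held 22.7%, 21.7% and 21.8% of the best 1000. Among the best 300 the shares were 25.7% in the series-level list and 26%, 22.7% and 21.7% in the replicates. Over the whole lists they were 17.5% (series-level), 19.1%, 19.6% and 20.4%. Among the best 100 the shares were 20%, 25%, 19% and 16%, no longer above those of the whole lists in replicates 2 and 3, with exact intervals wide enough in the series-level list and in replicates 2 and 3 to include 13.7% (the lowest bound being 9.43% and the highest 29.2%). In replicate 1 the long run supplied 7 of the 25 chromosome III peaks among the best 100, and 18% remained without it.

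Peaks on chromosome III were narrower than those elsewhere in each replicate list. The median width was 333, 408 and 414 bp in replicates 1, 2 and 3, against 385, 454 and 470 bp on the other chromosomes. The difference, III minus the others, was -51.3 ± 5.03 bp (SD, n = 3; exact sign-flip permutation test, two-sided, p = 0.25, adjusted p = 0.25). It was -37.3 bp against autosomes only, since chromosome X had the widest peaks of all (457, 493.5 and 529.5 bp). In the series-level list the medians were 294 bp on chromosome III, 294 bp on IV and 293 bp on I, so chromosome III was not the narrowest there. Narrower peaks on III than on the other chromosomes together were found at like rank too. At series-level ranks 1 to 1000 the median was 955 bp on III and 1087 bp elsewhere, and at ranks 1001 to 3000 it was 506 and 593 bp. The others include X and V, whose series-level medians were 411 and 366 bp, and like-rank medians by chromosome were not computed.

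Each replicate recovered a somewhat larger share of the series-level peaks on chromosome III than elsewhere. The shares on III were 41.1%, 23.2% and 16.9% for replicates 1, 2 and 3, against 37.4%, 20.4% and 13.7%. The difference was 3.20 ± 0.46 percentage points (SD, n = 3; exact sign-flip permutation test, two-sided, p = 0.25, adjusted p = 0.25). Replicates 2 and 3 recovered few peaks on chromosome I, 13.4% and 9.47%. With chromosome I left out of the others, an alternative chosen after seeing the data, the difference was 2.14 points, and with a reciprocal overlap of 50% it was 1.83 points. Chromosome III was not above every other chromosome, since replicate 2 recovered 24.6% on chromosome X. Its series-level peaks also had better ranks, with a median of 5691 against 6328. At like rank, support by at least 1 replicate was close on III and elsewhere. It was 96.4% and 96.3% at ranks 1001 to 3000, 60.4% and 61.5% at ranks 3001 to 6000, and 16.4% and 15.2% beyond. How much of the difference goes with rank was not tested.

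**Figure D3:**
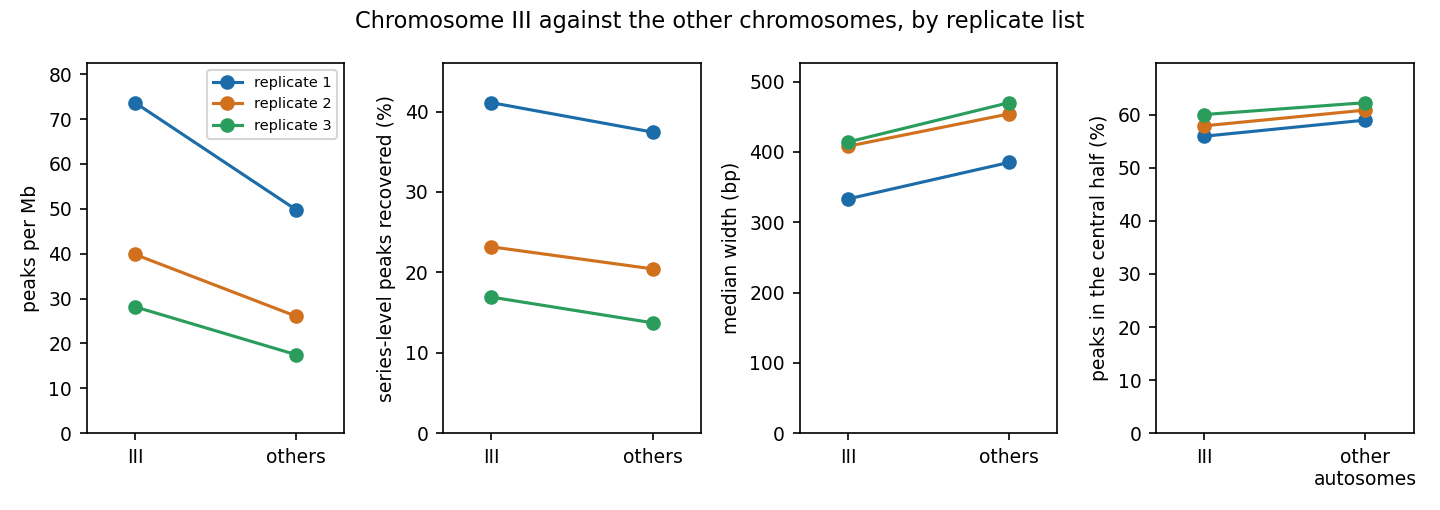
Chromosome III against the other chromosomes in replicates 1 to 3, each line being 1 replicate list. From left to right, the y axes give peaks per Mb, the share of series-level peaks recovered (%), the median peak width (bp) and the share of peaks in the central 50% of the span (%), the last against the other autosomes. Within each panel the 3 lines slope the same way, downwards in the first 2 panels and upwards in the others.

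Peaks were spread along the whole of chromosome III. In bins of 1 Mb, all 14 bins of replicates 1 and 3 and 13 of 14 in the series-level list and replicate 2 exceeded the mean density of the other chromosomes. The exceptions were megabase 12 in replicate 2, with 26 peaks, and megabase 2 in the series-level list, with 111 peaks per Mb. The densest bin was megabase 6 in replicate 1 (101 peaks) and replicate 3 (42), and in the series-level list (199) and replicate 2 (56) it was megabase 9. Density thus varied 1.79-fold along the chromosome in the series-level list, 1.80-fold in replicate 1, 2.15-fold in replicate 2 and 2.21-fold in replicate 3. Reproduced regions numbered 49 in megabase 6, 43 in megabase 9 and 41 in megabase 8, the highest values, and 21 in megabase 12.

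**Figure D4:**
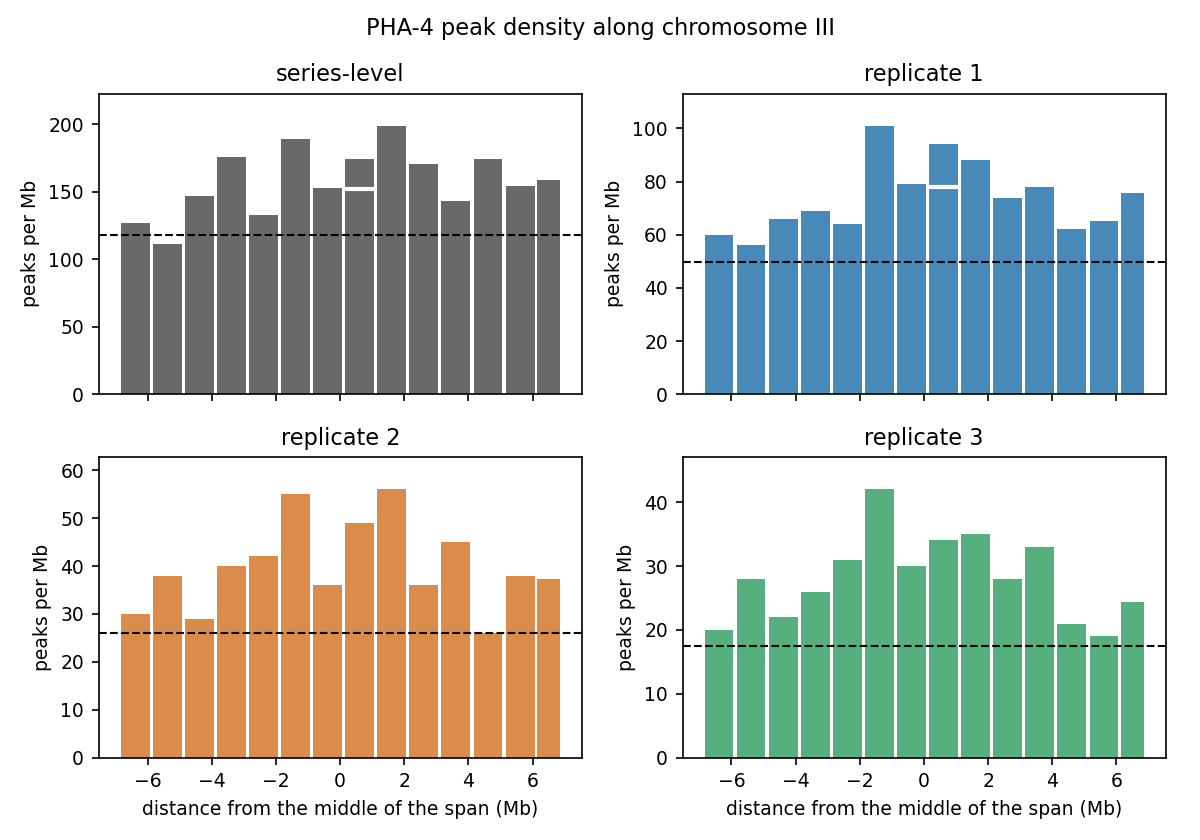
Peaks per Mb (y axis) in bins of 1 Mb along chromosome III, placed by distance from the middle of its span (x axis, Mb), in the series-level list and in replicates 1 to 3. The dashed line is the mean density of the other chromosomes in the same list, and the white line inside a bar marks the value without the long run. Bars near the middle reach 199 peaks per Mb in the series-level list and 101, 56 and 42 in replicates 1, 2 and 3.

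Megabases 2 and 12 went opposite ways in number and in support. Megabase 2 had the fewest series-level peaks, 111, of which 27.9% were supported by at least 2 replicates (interval 19.8 to 37.2%), and 7 were among the 100 best of chromosome III. Megabase 12 had 174 series-level peaks, of which 13.2% had such support (interval 8.57 to 19.2%), and 1 was among the 100 best. Replicates 1, 2 and 3 had 56, 38 and 28 peaks in megabase 2 and 62, 26 and 21 in megabase 12. Replicate 1 thus had more peaks in megabase 12, and replicates 2 and 3 had more in megabase 2. Both bins were picked after their values were seen, so no test is given.

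The central 50% of the span held 56.0%, 57.9% and 60.1% of the chromosome III peaks of replicates 1, 2 and 3. On the other autosomes the shares were 59.0%, 60.9% and 62.3%. The difference was -2.75 ± 0.44 percentage points (SD, n = 3; exact sign-flip permutation test, two-sided, p = 0.25, adjusted p = 0.25). With the centre narrowed to the middle 33.3% of the span, the difference was -5.53 points. Chromosome III was not the lowest autosome in replicates 1 and 2, where chromosome I had 52.4% and chromosome IV 57.5%. The left and the right end of chromosome III, each 25% of the span, held 20.6% and 23.4% of the peaks in replicate 1, 19.9% and 22.2% in replicate 2, and 19.8% and 20.1% in replicate 3. The right end was the fuller one in the series-level list as well, with 25.9% against 20.7%, while reproduced regions were as many on the left (91) as on the right (87). Series-level peaks of the centre had the most support, 23.6% by at least 2 replicates, against 19.8% on the left and 15.8% on the right. The centre held 63 of the 100 best peaks, beside 53.4% of all series-level peaks of chromosome III. The long run described below lies in the centre and supplied 6 of the 63.

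Neighbouring peaks of the series-level list were a median of 2.38 kb apart on chromosome III, with quartiles of 0.867 and 6.97 kb. In replicates 1, 2 and 3 the medians were 5.74, 11.6 and 15.5 kb, the order of their peak numbers. The longest stretches without a series-level peak were from 9994329 to 10090211 (95.9 kb), from 1960081 to 2032424 (72.3 kb), from 6736761 to 6802452 (65.7 kb), from 8164169 to 8227407 (63.2 kb) and from 5735124 to 5798297 (63.2 kb). The first was not empty in the replicates, with 2 peaks of replicate 1 and 1 of replicate 3. The fourth held 1 peak of replicate 1, and the others held 0 peaks of any replicate. All but the second lay in the central 50% of the span.

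Joining peaks separated by at most 2 kb gave 1189 runs, of which 744 were single peaks. The other 445 held 1431 peaks, 65.8% of those on chromosome III. That share was not computed for the other chromosomes. Runs of at least 10 kb numbered 15 on chromosome III and 54 on the other chromosomes, or 1.09 and 0.625 per Mb. Series-level peaks were also denser on chromosome III, with 157.8 per Mb against 118.3 on the others. How much of the difference in runs goes with density was not tested. The number on chromosome III depended on the joining distance, with 3 such runs at 1 kb and 115 at 5 kb. Peaks of all 3 replicates lay in 12 of the 15, and the other 3 held peaks of replicate 1 alone. In 5 of the 15 the best peak was among the 20 best of the chromosome. Such a length was reached by 3 runs of replicate 1 and 0 of replicates 2 and 3. Replicate support for the long runs of the other chromosomes was not computed.

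Among runs with all replicates, the longest extended from 13056785 to 13074764 (18.0 kb, 14 peaks, best rank 71). The peaks of replicates 1, 2 and 3 covered 33.1, 19.1 and 17.5% of it. A run from 4491333 to 4508677 (17.3 kb, 11 peaks, best rank 104) was covered for 21.2, 23.3 and 12.2%. The run with 2 of the neighbouring sites of megabase 8, from 7718295 to 7734413 (16.1 kb, 8 peaks, best rank 65), was covered for 38.7, 35.4 and 21.3%. The run from 12605024 to 12618198 (13.2 kb, 8 peaks, best rank 55) was covered most evenly of these, for 32.5, 36.2 and 33.1%, and each of its peaks had the support of at least 1 replicate. The run around the site best ranked in replicates 2 and 3, from 3862925 to 3875910 (13.0 kb, 7 peaks), held 3 peaks of replicate 1, 7 of replicate 2 and 3 of replicate 3. Runs from 10705280 to 10720652 (15.4 kb, 10 peaks) and from 1214607 to 1228844 (14.2 kb, 10 peaks) had 6 and 4 peaks of replicate 3 and 7 of each other replicate. The remaining 2 of the 10 longest, from 6073382 to 6084709 and from 11236742 to 11247975, were weaker, with best ranks of 563 and 1002 and 2 and 1 peaks of replicate 3.

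The longest run of all, from 7524670 to 7554569 (29.9 kb), was a feature of a single library. Its 22 series-level peaks each overlapped a peak of replicate 1 and 0 peaks of replicates 2 and 3. Replicate 1 had 16 peaks there, and its 5 best peaks on chromosome III all lay in it. They extended from 7544613 to 7549683 (rank 2, 5071 bp wide), from 7541614 to 7544365 (rank 6), from 7525570 to 7528850 (rank 9), from 7551018 to 7553116 (rank 10) and from 7532211 to 7534511 (rank 16). The series-level list had split the widest of these into 4 peaks with ranks of 5496, 403, 272 and 151. On the left, the nearest peak outside the run was 2.57 kb away in replicate 1 and 2.88 kb away in the series-level list, little more than the joining distance. The nearest peaks of replicates 2 and 3 on that side began at the same base, 7520658, ended 3.75 kb before the run and had ranks 1525 and 723. On the right, the nearest peaks were 6.74 kb away in the series-level list, 15.7 kb in replicate 2, 18.3 kb in replicate 3 and 40.1 kb in replicate 1. The run was named because of this pattern, so no test is given.

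**Figure D5:**
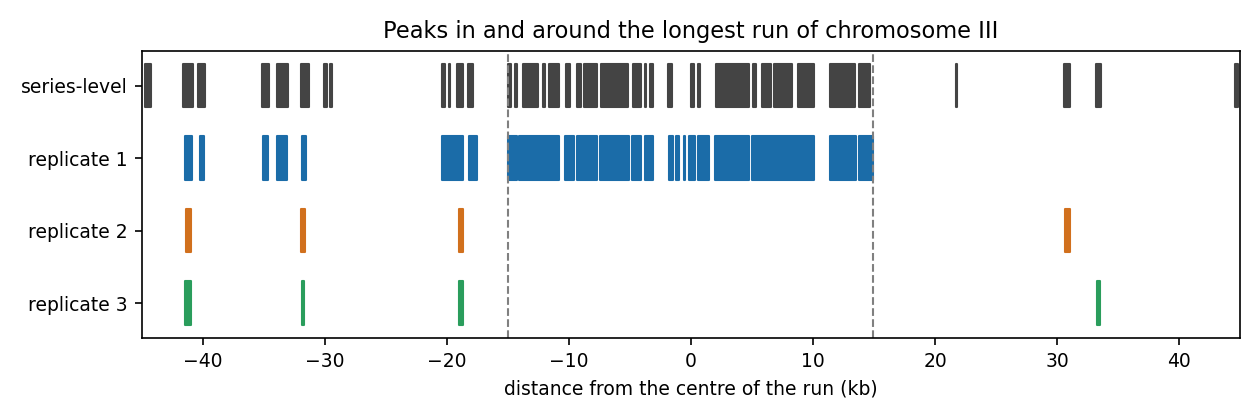
Peaks of the 4 lists in the longest run of chromosome III and 30 kb to either side, by distance from the centre of the run (x axis, kb). Each block is 1 peak, and the dashed lines are the borders of the run. Within the borders the series-level list has 22 peaks, replicate 1 has 16, and replicates 2 and 3 have 0.

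Leaving out the run changed few values. The number of peaks became 2153 in the series-level list and 999 in replicate 1, and the density 156.3 and 72.5 per Mb. In megabase 8, the peak number went from 174 to 152 in the series-level list and from 94 to 78 in replicate 1, while the 49 and 34 peaks of replicates 2 and 3 stayed. Support in that bin by at least 1 replicate went from 63.8 to 58.6%, and that by at least 2 from 22.4 to 25.7%. Megabase 8 held 15 of the 100 best chromosome III peaks with the run and 9 without it, so that megabase 6 with 12 and megabase 11 with 11 then came first. The widest peak of chromosome III in replicate 1 was 5071 bp with the run and 2993 bp without it. The 453 reproduced regions remained, since none lay in the run, and the mean density ratio to the other chromosomes was 1.53 without it.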

How the data were processed

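Per the file headers and the source column, the authors called peaks with PeakSeq on WormBase WS220. PeakSeq compares ChIP reads with an input control. The significance value the authors deposited for each peak was treated as a p-value, being below 0.001 throughout. Whether it was adjusted, the aligner, tool versions, filters and the way replicates were combined are not given in the sources used here. Depth is unknown.

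Overlaps, merged regions and runs were computed with pandas 2.3.3, numpy 2.4.6 and scipy 1.17.1 under Python 3.11.15, after checks on simulated lists. The span of a chromosome ran to the end of the last peak found on it in the 4 lists (100.2 Mb in all). Shares carry 95% Clopper-Pearson intervals. Comparisons with other chromosomes were made within each replicate list and tested over the 3 replicates by exact sign-flip permutation, with Benjamini-Hochberg adjustment over 4 comparisons. Sites were named by rank, width, run length and lack of support. The chromosome, the members, the lists and the tests were chosen with earlier results of these data known.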

Additional observations from a re-analysis of the deposited data

How the results depend on the processing

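Under the alternatives tried, 33 values in all, the 4 comparisons of chromosome III with the other chromosomes kept their direction. Of these values, 2 moved by more than 1.5 times: the difference in the central share went from -2.75 to -5.53 points with the centre narrowed to 33.3% of the span, and that in the recovered share from 3.20 to 1.83 points with a reciprocal overlap of 50%. The cause was not tested. Shares and counts moved too. With 1 replicate left out, support by at least 1 replicate ranged from 28.6 to 47.0%, that by at least 2 from 11.4 to 17.2%, and reproduced regions from 257 to 373, in part because fewer lists were left. With a reciprocal overlap of 50%, the shares were 40.8 and 13.9%, and with midpoints within 200 bp they were 45.9 and 16.7%. In the better-ranked 50% of each list, reproduced regions numbered 251 and runs of at least 10 kb numbered 6. The median width there was 440 bp. This setting keeps fewer peaks, and the cause of these changes was not tested. Runs of at least 10 kb numbered 3 with a joining distance of 1 kb and 115 with 5 kb. Leaving out chromosome V or chromosome I from the others was chosen after seeing the data and gave density ratios of 1.42 and 1.53. No paired analysis was possible between ChIP and input, because the peak lists cover ChIP samples only. Chromosomes were compared within each replicate list. Unknown depth limits every comparison of list sizes.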

Other observations

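On chromosome III, 84 series-level peaks (3.86%) were under 20 bp wide, beside 3.73% on the other chromosomes. Replicates 1, 2 and 3 had 14, 0 and 1 such peaks there. Of the 84, 12 overlapped a replicate peak and 0 had the support of at least 2 replicates. The series-level peaks of chromosome III were nowhere closer to each other than 201 bp, and the shortest distances in replicates 1, 2 and 3 were 203, 206 and 246 bp.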
